A study of Mus musculus with 8 samples.

Results

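The mouse genes Obox6, P4ha2, Ddit4l, Pramef25, Trim43a, Trim43b and Trim43c, known from the 2-cell embryo, were followed across a knockdown and an overexpression of Zscan4 in mouse embryonic stem (ES) cells. They were picked from the 18821 genes present in at least 1 of 2 gene tables because, in at least 1 arm, each did not change or moved opposite to Zscan4. Of these 7 genes, 5 had values in the knockdown arm (17938 genes) and 6 had values in the overexpression arm (18292 genes). P4ha2, Ddit4l, Pramef25 and Trim43a were in both, as were 17409 genes in all. Obox6 and Trim43c in the knockdown and Trim43b in the overexpression were not analysed here. Because the contrasts of both arms chose these genes, their differences are given as a description and without a test.

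Messenger RNA was sequenced from J1 ES cells, an established male mouse line (strain 12910la on the labels), in 4 groups of 2 libraries. In the knockdown arm, cells carried pSuper puro expressing a short hairpin RNA against Zscan4 (KD Zscan4, genotype Zscan4 knocked down) or a random control (KD control, genotype wild type). In the overexpression arm, cells carried pCMV-tag2, a plasmid with a strong viral promoter, with the coding region of Zscan4c (OE Zscan4, genotype Zscan4c overexpressed) or its control (OE control, genotype wild type). Transfection used 1000 ng of vector, and selection started 24 h later, with 2 µg/ml puromycin for 7 days or 500 µg/ml G418 for 10 days, in medium with 15% serum and 10 ng/ml of the cytokine LIF. Monoclonal cells were then picked, and the labels do not say whether the libraries of a group came from 1 clone or 2. A difference between groups may therefore hold differences between clones, and the SD and every p-value measure only the spread between such libraries. The control groups carry vector and selection too, and the selecting drug differs between arms, so the arms are never subtracted from one another here.

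The mouse embryo switches on its own genome at the 2-cell stage, when a burst of genes and retroviral elements is transcribed that is soon silenced again. In ES cell cultures a small fraction of cells passes through a similar state, marked by the DNA-binding proteins of the Zscan4 cluster, by the transcription factor Dux and by MERVL retrovirus transcripts. In bulk RNA, fewer cells in such a state and less RNA per cell cannot be told apart. Of the 7 genes, Obox6 encodes a homeodomain protein of an oocyte-specific family, and Pramef25 a leucine-rich repeat protein of the PRAME family, which is expressed mainly in germ cells and early embryos. Trim43a, Trim43b and Trim43c are near-identical tripartite-motif genes of preimplantation embryos. P4ha2 and Ddit4l have wider roles, P4ha2 as a catalytic subunit of the prolyl 4-hydroxylase that modifies collagen and Ddit4l (also Redd2) as a stress-induced brake on the growth kinase complex mTORC1.

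Zscan4 RNA was lower in the knockdown and higher in the overexpression, in which reads of the plasmid and of the cells' own copies cannot be told apart. The summed signal of 9 measured Zscan4 genes, in the deposited unit of reads divided by a size factor, was 3752 and 3336 in the KD control libraries against 97.4 and 136 in KD Zscan4, a 30.4-fold lower mean. It was 360 and 389 in OE control against 5878 and 5311 in OE Zscan4, 14.9-fold higher. Genes of the 2-cell state other than the 7 followed in both directions. Of the 32 such genes measured in the knockdown, 30 fell and 0 rose (median log2 difference -2.62, all genes 0.01), and of 37 measured in the overexpression, 36 rose and 0 fell (median 3.15, all genes -0.00). The 7 were set apart by these same contrasts, and the list was made with earlier results of these data known. The counts are thus partly fixed by that choice and are no independent test. Some listed genes were retained only through the group where they were high. Zfp352 had 22 reads against 1 in the knockdown, and Tdpoz3 1 against 29 in the overexpression. Here and below, rose and fell mean a limma adjusted p below the false discovery rate of 0.05, and a log2 difference is the Zscan4 group minus its control on the log2(value + 1) scale. Depth was 17392177 to 22381633 reads in genes per library, and ES cell markers were abundant throughout, the lowest of 10 (Klf4) at 2007 in an OE control library. Of these 10 markers, 3 rose and 3 fell in the knockdown (1 fell without KD control replicate 1 or without KD control replicate 2), while in the overexpression 9 rose (median 0.51) and their sum went from 121195 to 124601 in OE control up to 166585 to 167857 in OE Zscan4.

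The values split the members into 3 patterns. P4ha2 and Ddit4l were lower with less Zscan4 and lower again with more. Obox6, measured in the overexpression arm alone, was lower with more Zscan4. Pramef25 and Trim43a were lower in the mean of the knockdown and higher in the overexpression, the direction of Zscan4 itself, so that the label of genes not following Zscan4 holds for them only in that the knockdown difference did not pass. Trim43b and Trim43c were near the lowest level retained in the tables. In the knockdown, 2 of the 5 measured members passed the limma threshold, both lower, beside 18.5% of all genes that fell and 35.7% that passed in either direction. In the overexpression 3 of 6 passed as lower, beside 22.1% of all genes, and 2 as higher, beside 22.3%. The rule used these same contrasts, so nothing is read from those counts. Libraries of the groups did not overlap for 4 of 5 members in the knockdown (67.8% of all genes) and 5 of 6 in the overexpression (71.2% of all genes).

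**Figure D1:**
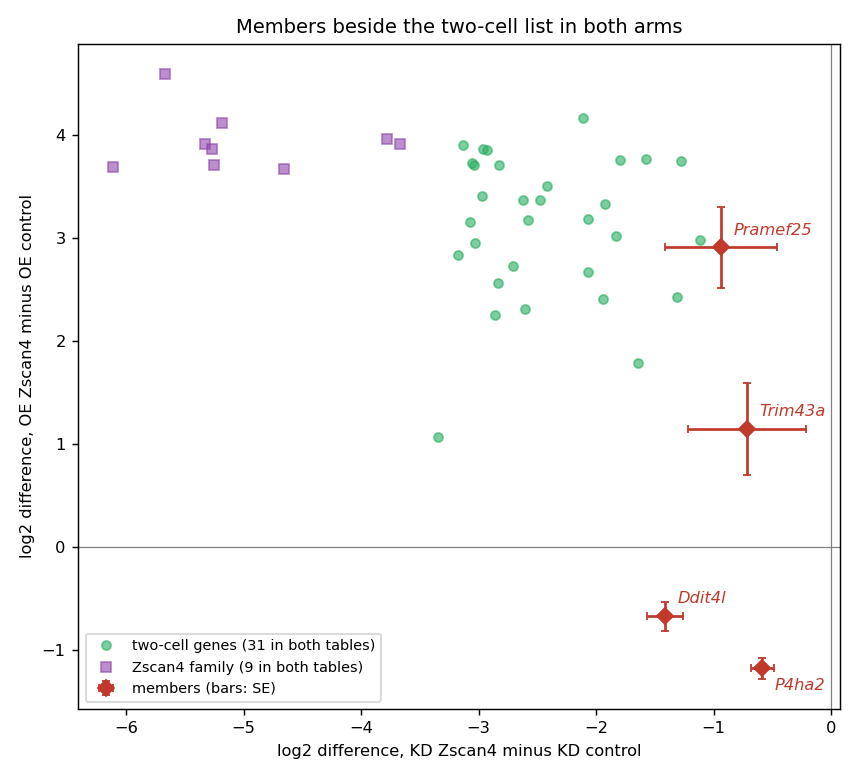
Log2 difference in the knockdown (horizontal) against that in the overexpression (vertical) for the 4 members in both tables (red diamonds, bars are SE), 31 other 2-cell genes (green circles) and 9 Zscan4 genes (purple squares). All 31 other 2-cell genes lie at upper left, from -3.35 to -1.12 and from 1.06 to 4.16, Pramef25 and Trim43a lie at their right-hand edge, and P4ha2 and Ddit4l lie below 0 on both axes.

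In the plot of both arms, Pramef25 and Trim43a lie at the edge of the other 2-cell genes, and P4ha2 and Ddit4l lie apart from them. Of those 31 genes, 28 passed in both arms. The green circle nearest to Pramef25 in the knockdown is Gm2035 at -1.12, which did not pass either, beside -0.94 for Pramef25 and -0.72 for Trim43a. The lowest green circle is Duxf3 (Dux), with 8 reads against 15 in the overexpression arm (log2 difference 1.06, SE 0.71, limma adjusted p = 0.245), close to the 1.15 of Trim43a. Without OE control replicate 2 the Duxf3 difference was 2.10 and passed. Among all 17409 genes of both tables, 3.6% fell in both arms, as P4ha2 and Ddit4l did, and 6.65% fell in the knockdown and rose in the overexpression. A further 3.88% rose in both, and 5.67% rose in the knockdown and fell in the overexpression.

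The sequences at the starts of P4ha2 and Ddit4l are shown because these genes have the most reads of the 7 and lie opposite to the other 2-cell genes in the overexpression. Each is the 250 bases upstream of the RefSeq start (GRCm38.p6), 5′ to 3′ on the gene's strand. For both genes the RefSeq start lies downstream of the outermost GENCODE start given with the gene's coordinates below, so each window falls inside the GENCODE span. The P4ha2 window is chr11:54100674-54100923 on the + strand, and the Ddit4l window is chr3:137623422-137623671 on the + strand. Capitals mark matches on either strand to TGCACAC, a motif reported for Zscan4, and to ACGTG or GCGTG, the core letters of the hypoxia response element.
P4ha2: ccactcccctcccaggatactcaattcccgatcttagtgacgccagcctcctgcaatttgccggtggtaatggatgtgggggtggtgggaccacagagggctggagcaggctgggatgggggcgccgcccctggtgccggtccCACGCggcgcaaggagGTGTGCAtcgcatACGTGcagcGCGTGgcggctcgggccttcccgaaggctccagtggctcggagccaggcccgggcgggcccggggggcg
Ddit4l: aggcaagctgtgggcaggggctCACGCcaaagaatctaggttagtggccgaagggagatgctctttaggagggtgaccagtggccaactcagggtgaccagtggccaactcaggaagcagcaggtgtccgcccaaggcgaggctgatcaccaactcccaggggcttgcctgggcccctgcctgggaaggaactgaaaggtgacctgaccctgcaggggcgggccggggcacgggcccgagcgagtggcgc
The P4ha2 window held 1 match to the Zscan4 motif, on the opposite strand as GTGTGCA, which 3.67% of 32851 RefSeq promoter windows of this length held on either strand. It held 3 matches to the hypoxia core and the Ddit4l window held 1, where 38.6% of windows held at least 1. The windows of Pramef25 and Trim43a held neither motif. A match is a string of letters and no evidence of binding.

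P4ha2 (ENSMUSG00000018906, chr11:54100095-54131665, + strand, mm10) was the member with the highest counts. Its signal was 516 and 449 in KD control and 333 and 309 in KD Zscan4. Both knockdown libraries lay below both controls, at 66.5% of the control mean (log2 difference -0.59, SE 0.10). In the overexpression arm it was 631 and 749 in OE control against 295 and 313 in OE Zscan4. These groups were again apart, the mean at 44.0% of control (log2 difference -1.18, SE 0.10). On a joint scale of CPM (reads scaled to one fixed library total, here with TMM factors over all 8 libraries), the order of groups was OE Zscan4 at 15.4, KD Zscan4 at 16.2, KD control at 24.5 and OE control at 35.0. The 2 Zscan4-manipulated groups overlapped, with Zscan4 sums of 284 and 5.90 CPM, and the other neighbours in this order did not overlap. The arms differ in vector and drug, and their controls were apart from each other too. Nothing about the level of Zscan4 is therefore read from that overlap.

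P4ha2 lies on chromosome 11, and in the overexpression arm that chromosome was lower along its whole length. The median log2 difference of its 1086 genes with a mean signal of at least 20 was -0.34, with 81.1% of them below 0, while no other of the 18 remaining autosomes had a median outside -0.07 to 0.09. Each block of 10 Mb had a median between -0.47 and -0.17. In the knockdown the median of chromosome 11 was -0.02, and chromosome 1, which holds no member, stood at 0.56. Chromosome Y, where no member lies either, had 5 such protein-coding genes with a median of -2.20 in that arm and -6.02 in the overexpression. Relative to the chromosome, P4ha2 was -0.84 in the overexpression and -0.57 in the knockdown. Of 27 measured protein-coding genes within 1 Mb of P4ha2, 17 fell and 0 rose in the overexpression, where 22.1% of all genes fell. Their median was -0.56, and 8 of the 27 were lower than P4ha2. Of 26 in the knockdown, 1 fell and 9 rose, beside 18.5% and 17.2% of all genes, and none was lower than P4ha2. The nearest measured protein-coding genes are Pdlim4 and Slc22a21 on one side and Acsl6 and Fnip1 on the other. Pdlim4, which encodes a cytoskeletal LIM-domain protein, was 177 and 126 in OE control and 51.0 and 36.6 in OE Zscan4 (log2 difference -1.76, limma adjusted p = 4.9e-06), and -0.08 in the knockdown, where it did not pass. Slc22a21, a carnitine transporter gene, fell in the overexpression (-1.71, a call lost without OE Zscan4 replicate 1 at -0.90) and was at -0.03 in the knockdown. Acsl6, an acyl-CoA synthetase gene 172 kb away, fell in the overexpression (-0.84) and did not pass in the knockdown (0.23). Fnip1, a partner of folliculin 307 kb away, fell in the overexpression (-0.86) and rose in the knockdown (0.36, a call lost with DESeq2 at 0.36 and without 3 of the 4 libraries in turn, at 0.26 to 0.36). The part of the chromosome-wide shift in the P4ha2 value was not tested beyond this subtraction.

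**Figure D2:**
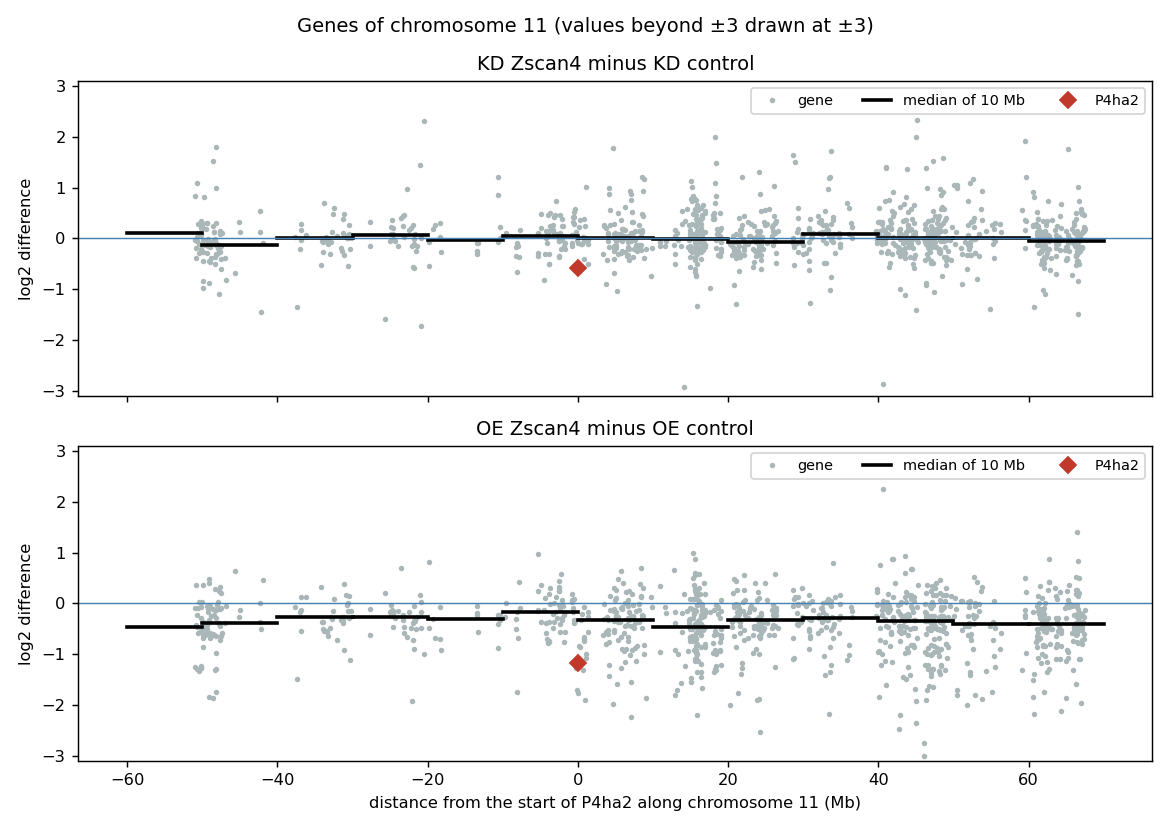
Log2 difference of protein-coding genes of chromosome 11 (grey) in the knockdown (top) and the overexpression (bottom) by distance in Mb from the start of P4ha2, with medians of 10 Mb blocks (black lines) and P4ha2 (red). In the overexpression every block median lies below 0, between -0.47 and -0.17, and P4ha2 at -1.18 lies below its block, while in the knockdown P4ha2 at -0.59 lies under medians near 0.

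Of the genes that share the collagen-modifying role of P4ha2, 7 fell and 6 did not pass in the knockdown, and they went both ways in the overexpression. This list held the other prolyl hydroxylases, the lysyl hydroxylases and their chaperones, without P4ha2. The 13 measured in the knockdown, none of which rose, ran from -1.07 to 0.97, with a median of -0.35 beside 0.01 for all genes. Among all genes 18.5% fell in that arm. P3h4, a partner of the prolyl 3-hydroxylases, fell (-0.91), as did Serpinh1 (-0.85), the collagen chaperone HSP47, and Plod2 (-0.47), a lysyl hydroxylase. P4ha1, the alternative catalytic subunit, was at 0.01 there and did not pass. In the overexpression 5 of 12 fell and 3 rose, beside 22.1% and 22.3% of all genes, with a median of -0.04. P4ha1 was 1776 and 1440 in OE control and 642 and 644 in OE Zscan4 (-1.31, limma adjusted p = 5.5e-09), close to the difference of P4ha2. Plod2 (-0.72) and Plod1 (-0.63) fell too, as did P4hb (-0.40), the shared beta subunit, whose gene lies on chromosome 11 and was at -0.07 relative to that chromosome, while Crtap, a subunit of the prolyl 3-hydroxylase complex, rose (1.14).

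P4ha1 and P4ha2 are also known targets of the hypoxia-inducible factors, and a list of 16 annotated hypoxia genes without P4ha2 moved in the overexpression. Of 16 measured there, 13 fell and 1, Kdm3a (0.51), rose, beside 22.1% and 22.3% of all genes. The median was -0.90, beside -0.00 for all genes. Bnip3, a mitophagy receptor gene, was 5236 and 4966 in OE control and 1807 and 1979 in OE Zscan4 (-1.43, limma adjusted p = 5.8e-11). Adm (-2.30), which encodes the peptide adrenomedullin, Ndrg1 (-1.90) and Ddit4 (-1.68) fell as well. In the knockdown the list went both ways, with 6 of 15 higher and 5 lower, beside 17.2% and 18.5% of all genes, and a median of 0.01. Ankrd37 (0.96) and Vegfa (0.73), the angiogenic growth factor, rose there and Slc2a1 (-0.69), the glucose transporter GLUT1, fell. Ndrg1 fell by 0.53 in the knockdown, a call lost with DESeq2 (-0.53) and without KD Zscan4 replicate 2 (-0.41) or KD control replicate 2 (-0.53). In those 3 analyses the genes of the list that fell in the knockdown numbered 3, 3 and 2.

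Ddit4l (ENSMUSG00000046818, chr3:137621612-137628333, + strand) was lower in both arms in the reverse order of size. Its signal was 228 and 264 in KD control and 104 and 80.6 in KD Zscan4. The knockdown mean was 37.4% of control with no overlap (log2 difference -1.42, SE 0.15). It was 195 and 191 in OE control and 116 and 126 in OE Zscan4. There the mean was 62.6% of control (log2 difference -0.67, SE 0.14). On the joint scale KD Zscan4 had 4.65 CPM, OE Zscan4 6.14, OE control 9.79 and KD control 12.5, and none of these neighbours overlapped. Chromosome 3 had a median near 0 in both arms, at -0.02 and 0.04. No measured protein-coding gene within 1 Mb of Ddit4l was lower than Ddit4l in either arm. Dnajb14, which encodes a chaperone of the endoplasmic reticulum, lies 239 kb away and fell in the knockdown, from 110 and 88.7 to 46.7 and 49.5 (-1.03, limma adjusted p = 0.0016). H2afz, the histone variant gene on the same side, was at 0.10 in the knockdown and did not pass, except without KD Zscan4 replicate 2 (0.16), and it rose in the overexpression (0.54).

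Ddit4l acts on mTORC1, and 14 other genes that restrain that kinase were read beside it. In the knockdown 4 of 14 fell and 1 rose, with a median of -0.08, a share that passed no larger than the 35.7% of all genes. Castor1, a sensor of arginine, fell from 838 and 857 to 482 and 464 (-0.84, limma adjusted p = 3.8e-06), and the sestrin gene Sesn1 rose (0.55). Ddit4, the close relative of Ddit4l, fell by 0.37, a call lost without KD control replicate 2 (-0.27), where 1 of the 14 fell, and with DESeq2 2 fell. In the overexpression 6 of 14 fell and 3 rose, with a median of -0.18, where 44.3% of all genes passed. Ddit4 fell from 3226 and 2940 to 919 and 1007 (-1.68, limma adjusted p = 2.6e-11), with Castor1 (-0.68) and Sesn3 (-0.60) lower and Akt1s1 (0.63), Sesn2 (0.55) and Tbc1d7 (0.47) higher. Castor1 lies on chromosome 11 and was at -0.35 relative to it in the overexpression, and Nprl3, another of the 6, at -0.00. Ddit4l was lower than each of the 14 in the knockdown.

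**Figure D3:**
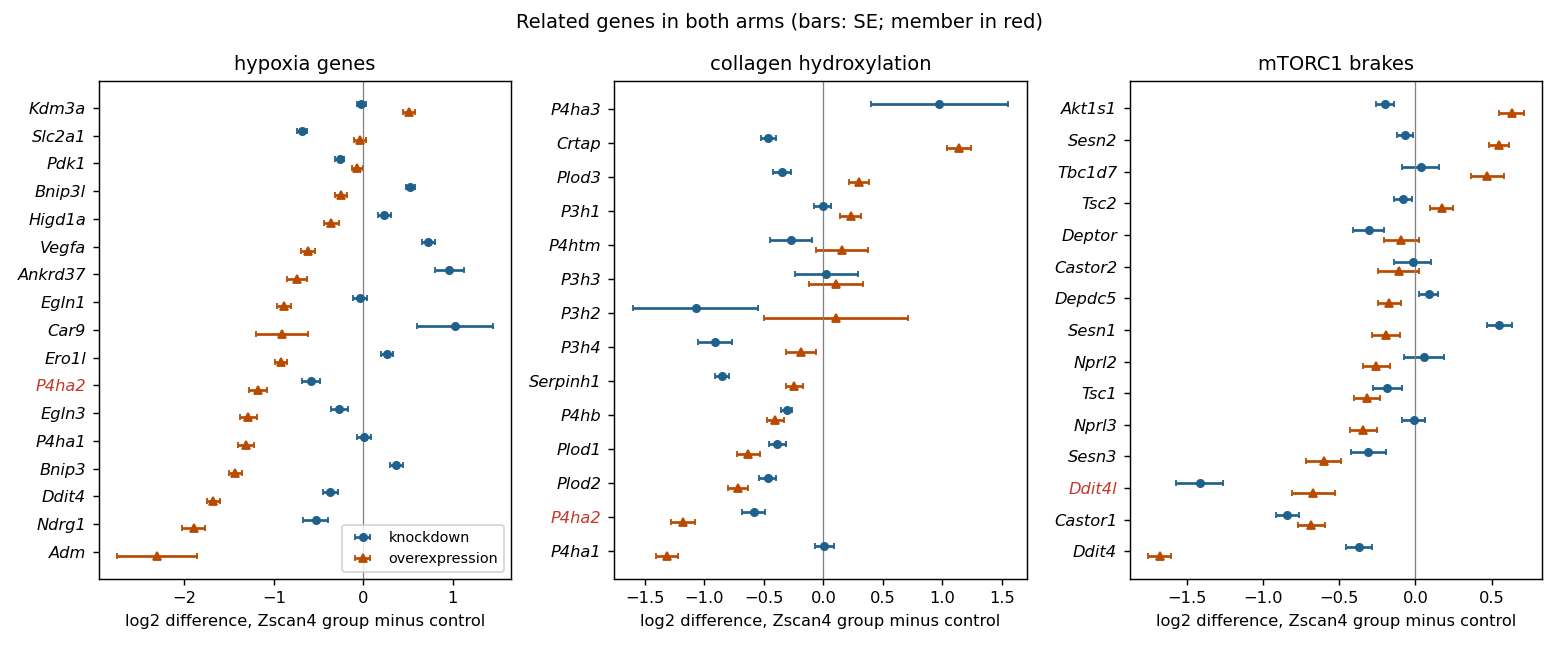
Log2 difference (horizontal, bars are SE) in the knockdown (blue circles) and the overexpression (orange triangles) for hypoxia genes, collagen-hydroxylating genes and brakes on mTORC1, with P4ha2 and Ddit4l in red among the genes of their own pathways. In the left panel 13 of the 16 orange triangles other than P4ha2 passed below 0, and Ddit4l is the lowest blue circle of the right panel.

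Markers of another cell state moved in the same libraries as P4ha2 and Ddit4l. Of 16 primitive endoderm markers, 16 fell in the knockdown, beside 18.5% of all genes. Their summed signal went from 20282 to 20541 in KD control down to 6391 to 6887 in KD Zscan4. Gata6, a defining factor, was 467 and 383 against 25.4 and 16.5. In the overexpression 11 of 15 fell, with sums of 8368 to 8728 against 6118 to 6132 (7 fell with DESeq2 or without OE Zscan4 replicate 2), and none of the markers was at 0 in every library of an arm. Among all genes 22.1% fell in the overexpression. Fibroblast marker sums were 551 to 561 against 534 to 571 in the knockdown, with 8 of 13 markers measured, of which 2 rose and 1 fell. In the overexpression the sums were 891 to 899 against 441 to 468, with 7 measured, of which 1 rose and 3 fell. The fibroblast genes Dcn and Lum were not analysed here. Col1a1 (-1.13) of this list and Sparc (-0.56) of the endoderm list lie on chromosome 11, whose median was -0.34 in the overexpression. ES cell markers were higher in the same OE Zscan4 libraries, as given above. The part of any of these markers' cells or states in the values of P4ha2, Ddit4l, Obox6 and the hypoxia list was not tested.

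Obox6 (ENSMUSG00000041583, chr7:15833241-15839678, - strand) had 65.8 and 31.9 in OE control and 17.0 and 12.2 in OE Zscan4. The 2 controls differed from each other by more than the Zscan4 libraries did, but the groups were apart, with a mean at 29.9% of control (log2 difference -1.60, SE 0.36). These values rest on 69 and 31 reads against 16 and 13. Leaving out 1 library at a time gave -2.11 to -1.09, the latter without OE control replicate 1. Of the 8 other genes of the Obox list only Crxos, a homeobox gene of the same cluster, was measured. Crxos starts 42.9 kb beyond the end of Obox6 and fell in the overexpression, from 249 and 238 to 49.97 and 29.1 (-2.64, limma adjusted p = 3.9e-08). In the knockdown Crxos rose, with 3 reads against 36 (ratio 11.9, 95% counting interval 3.78 to 60.6), where Obox6 has no value to set beside it. The lowest gene retained had 19 reads, so Crxos was kept there only through KD Zscan4, and a fall could hardly show. The next gene, Selenow, which encodes a selenoprotein, rose in the overexpression (0.48). Of 23 measured protein-coding genes within 1 Mb of Obox6, 6 fell and 9 rose, beside 22.1% and 22.3% of all genes. Of the 23 only 1, Crxos, was lower than Obox6.

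Pramef25 (ENSMUSG00000078511, chr4:143948580-143951016, - strand) was the member with the largest difference in the overexpression. Its signal was 33.1 and 12.4 in KD control and 8.12 and 12.6 in KD Zscan4. One KD control library stood above the other 3, and the groups overlapped (log2 difference -0.94, SE 0.48, 95% interval -1.98 to 0.10). The interval reaches past a halving, so the value does not show that Pramef25 was unaltered. In the overexpression it was 8.58 and 4.12 in OE control and 55.3 and 47.9 in OE Zscan4. Both Zscan4 libraries stood far above both controls (log2 difference 2.91, SE 0.39), on 13 reads against 103 in all (ratio 7.98, 95% counting interval 4.47 to 15.5). Without KD control replicate 1 the knockdown difference was -0.26, and without KD control replicate 2 it was -1.62. On the joint scale OE control had 0.322 CPM, KD Zscan4 0.525, KD control 1.16 and OE Zscan4 2.62, and only the last pair of neighbours did not overlap.

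Pramef25 sits in a cluster of PRAME-family genes on chromosome 4 whose members did not move as a block. BC080695, 375 kb away, fell from 32 to 4 reads in the knockdown (-2.59, limma adjusted p = 0.0040, lost without KD control replicate 2 at -2.27) and rose from 5 to 46 in the overexpression (2.80, limma adjusted p = 2.3e-04). Gm13119, 407 kb to the other side, fell in the knockdown from 45.7 and 46.0 to 18.3 and 17.5 (-1.31) and rose in the overexpression from 21.9 and 13.4 to 95.7 and 97.7 (2.43). Both thus took the direction of Zscan4 in each arm, and Pramef25 had the same signs. Gm13078 had 2 reads against 19 in the overexpression arm (ratio 9.57, 95% counting interval 2.31 to 84.7), a call lost with DESeq2 (3.30) and without OE Zscan4 replicate 1 (2.15). Pramef12 went the other way, up in the knockdown (0.41) and down in the overexpression (-0.65). Pramef8 fell in the knockdown (-0.40) and was at 0.30 in the overexpression, where it did not pass. Gm13119 and Gm13078 were also counted among the other 2-cell genes. Gm13078, BC080695 and Pramef25 had 2, 5 and 13 OE control reads, below the 19 of the lowest gene retained. Their presence in that arm thus rests on OE Zscan4, and a fall could hardly show. Of 1585 windows of 100 bases in Pramef25 transcripts, 26.5% occur unaltered in other genes, among them Gm13043, Gm13040, Gm13057 and BC080695, so its reads may be split between copies.

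**Figure D4:**
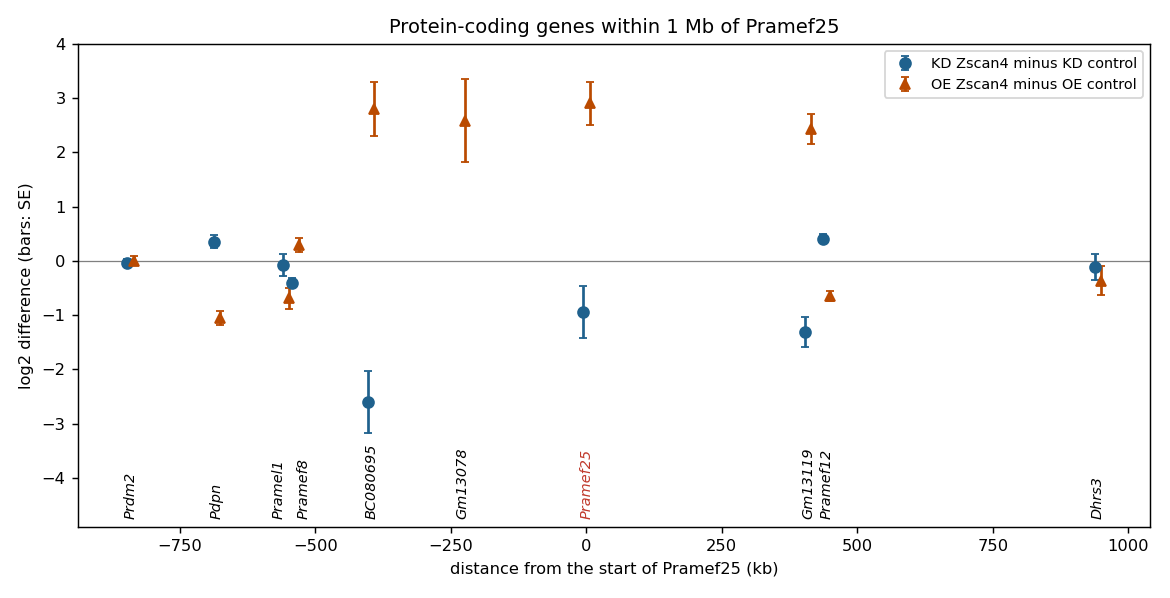
Log2 difference (vertical, bars are SE) of protein-coding genes within 1 Mb of Pramef25 by distance in kb from its start, in the knockdown (blue circles) and the overexpression (orange triangles). BC080695, Gm13078, Pramef25 and Gm13119 lie between 2.43 and 2.91 in the overexpression, while Pramef12, close to Gm13119, lies at -0.65.

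The Trim43 genes differ by few bases, which bears on how far their reads can be assigned. The stretch from coding base 69 to 188 is shown for each (GENCODE M21 transcripts, 5′ to 3′, base 1 being the A of the start codon), with capitals at the 10 positions where at least 1 of the 3 differs.
Trim43a: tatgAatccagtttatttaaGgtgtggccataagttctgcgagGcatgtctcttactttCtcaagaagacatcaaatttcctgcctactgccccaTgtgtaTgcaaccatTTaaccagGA
Trim43b: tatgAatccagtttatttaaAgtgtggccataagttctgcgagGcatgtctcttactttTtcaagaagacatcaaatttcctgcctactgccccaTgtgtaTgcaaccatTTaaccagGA
Trim43c: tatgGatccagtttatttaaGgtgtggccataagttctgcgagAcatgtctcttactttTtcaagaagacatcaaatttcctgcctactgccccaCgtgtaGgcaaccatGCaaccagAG
Over the aligned coding sequence, 52 of 1338 columns differed. Identity was 98.4% between Trim43a and Trim43b, 96.9% between Trim43a and Trim43c, and 97.8% between Trim43b and Trim43c. Windows of 100 bases shared with other genes made up 13.4% of Trim43a, 20.04% of Trim43b and 30.5% of Trim43c, in which 9330159M07Rik, a noncoding gene on the opposite strand of Trim43c, takes part. Whether the counting used strand is not given in the sources used here.

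Trim43a (ENSMUSG00000090693, chr9:88580891-88588819, + strand) had 13.4 and 7.86 in KD control and 7.10 and 4.85 in KD Zscan4. Both KD Zscan4 libraries were below the controls, but the nearest libraries of the groups were closer to each other than the 2 controls were (log2 difference -0.72, SE 0.50, 95% interval -1.81 to 0.37). In the overexpression it had 6.67 and 11.3 in OE control against 14.9 and 28.2 in OE Zscan4. The groups did not overlap (log2 difference 1.15, SE 0.45), on 18 reads against 44 (ratio 2.46, 95% counting interval 1.39 to 4.53). It lay near the threshold there, short of it with DESeq2 (1.27), TMM scaling (1.13), limma-voom (1.22) and all 8 libraries in one fit (1.15). The same contrast chose this gene, so its side of the threshold is no test. The difference was 0.71 without OE Zscan4 replicate 2 and 0.80 without OE control replicate 1. On the joint scale KD Zscan4 had 0.302 CPM, OE control 0.457, KD control 0.541 and OE Zscan4 1.09, and only OE Zscan4 was apart from its neighbour. The arms differ in vector and drug, so nothing about the level of Zscan4 is read from this order.

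Trim43b (ENSMUSG00000079162, chr9:89084624-89092835, - strand) had 8.96 and 8.98 in KD control and 6.09 and 7.77 in KD Zscan4. The libraries did not overlap but held only 10 and 8 reads against 6 and 8. The log2 difference of -0.34 (SE 0.47, 95% interval -1.37 to 0.69) is a description, and its interval spans both directions. Trim43c (ENSMUSG00000067399, chr9:88839164-88848190, + strand) had 1.91 and 8.24 in OE control and 10.6 and 4.70 in OE Zscan4. One library of each group lay among those of the other, and the log2 difference of 0.65 (SE 0.67, 95% interval -0.76 to 2.06) turned to -0.18 without OE control replicate 1. Both genes were measured on 32 and 25 reads in all, where the lowest gene of either table had 19. Summed over the 2 Trim43 genes measured in each arm, which lessens the effect of split reads between those copies, the signal was 22.4 and 16.8 in KD control against 13.2 and 12.6 in KD Zscan4, and 8.58 and 19.6 in OE control against 25.5 and 32.9 in OE Zscan4. The pair was Trim43a and Trim43b in the knockdown and Trim43a and Trim43c in the overexpression, so the sums are not the same quantity. In reads they were 25 and 15 against 13 and 13, and 9 and 19 against 24 and 35. As a description, these sums did not overlap between groups in either arm, lower with less Zscan4 and higher with more. Groups did not overlap for 67.8% and 71.2% of all genes either. Around the genes, Zfp949, 9.83 kb from Trim43a, was at -0.05 in the knockdown and rose in the overexpression (0.63), as did Syncrip (0.75), an RNA-binding protein gene that was at -0.05 in the knockdown. Mthfsl, between Trim43a and Trim43c, did not pass in either arm (0.26 and -0.37).

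**Figure D5:**
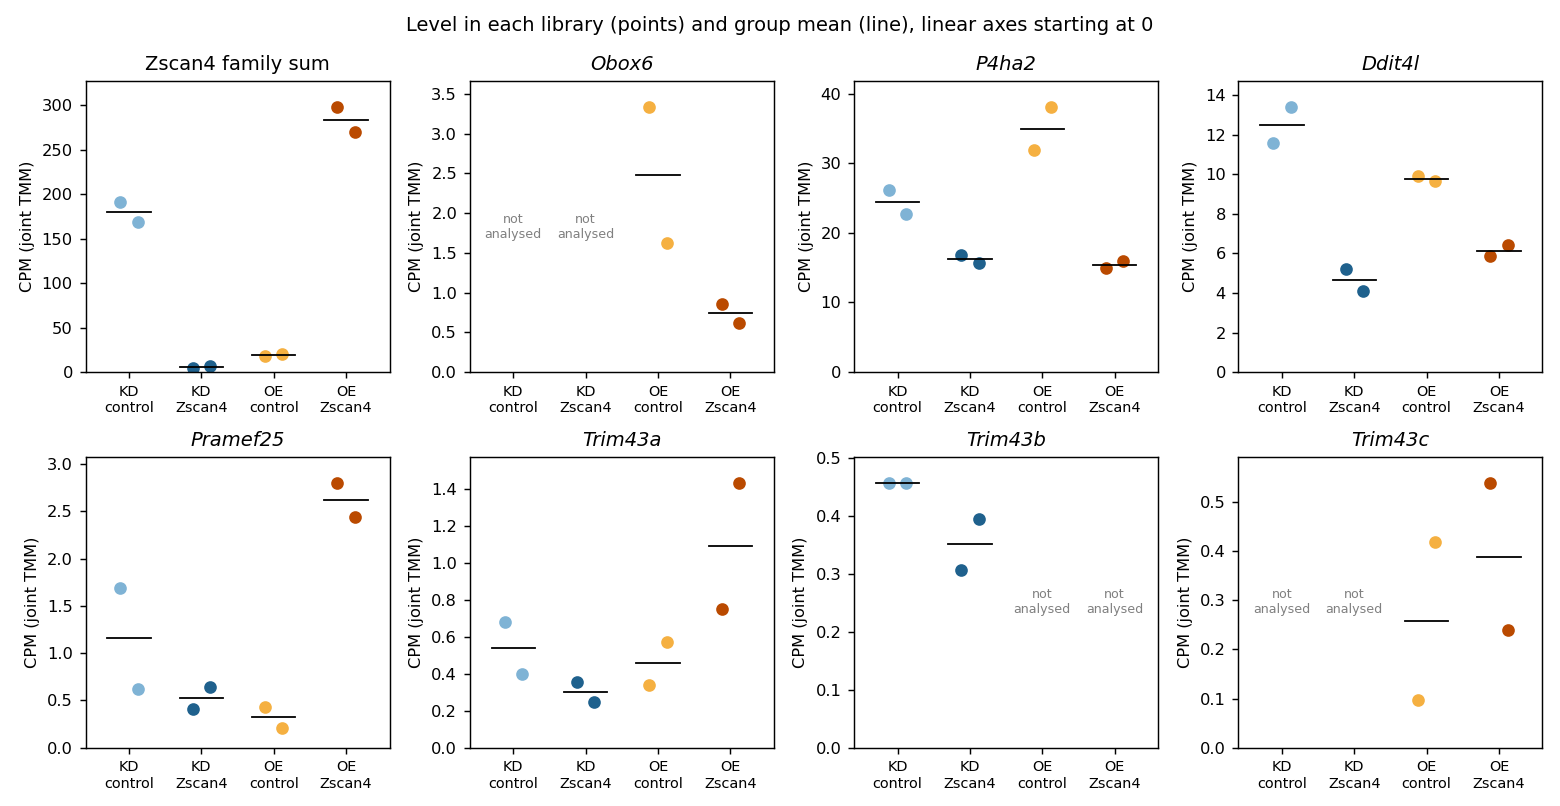
CPM on the joint scale in each library (points) with group means (lines) for the Zscan4 sum and the 7 members, each panel with its own linear axis from 0. P4ha2 and Ddit4l are highest in the control groups, Pramef25 and Trim43a are highest in OE Zscan4 as Zscan4 is, and Trim43b and Trim43c lie below 0.6 CPM throughout.

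Per kilobase of exon, which allows levels of different genes to be set side by side, P4ha2 had the highest joint CPM per kb of the members in OE control at 5.61 ± 0.69 (SD, n = 2), above Ddit4l at 3.36 ± 0.05, Obox6 at 1.84 ± 0.90, Trim43a at 0.230 ± 0.085, Pramef25 at 0.191 ± 0.095 and Trim43c at 0.129 ± 0.114, the last 3 within their spread of each other. In KD control Ddit4l (4.29 ± 0.43) and P4ha2 (3.93 ± 0.39) were within their spread of each other, and Pramef25 had 0.687 ± 0.445. In OE Zscan4 the level of Pramef25 was 1.55 ± 0.15, above that of Obox6 at 0.552 ± 0.126 and of Trim43a at 0.551 ± 0.242. The P4ha2 and Ddit4l levels therefore stood above those of the other members measured in each control group.

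Genes whose joint levels ran most nearly parallel to each member over the 8 libraries were sought among the genes of both tables with a mean of at least 20. Genes whose symbol shares its first 4 letters with the member, P4ha1 and Ddit4 among them, were left out before ranking. All share the same libraries and scaling, and the 4 group levels shape each value, so Pearson's r is a description. P4ha2 was matched by Tmem30b (0.987), a lipid flippase subunit gene, Kank3 (0.987) and Rin2 (0.984). Ddit4l was matched by Epcam (0.991), an epithelial adhesion gene, Gm11532 (0.986) and Plaur (0.980), the urokinase receptor gene. The knockdown and overexpression differences of Epcam were -1.01 and -0.39, and those of Tmem30b -0.51 and -0.83, each repeating the order of its member. The matches of Pramef25 were Efcab7 (0.973), Gm8741 (0.954) and Krr1 (0.954), and those of Trim43a were Serpini1 (0.962), Dbf4 (0.929) and Faf1 (0.923). With few reads behind the last 2 members, their matches are weak descriptions, and with a pseudocount of 5 in place of 1 the top 3 kept 3 genes for P4ha2 and 2 for each of the others.

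The retroviral element of the 2-cell stage was a readout that played no part in choosing the members. MERVL-int, the internal part of MERVL, had a signal of 5599 and 5211 in KD control against 1032 and 1378 in KD Zscan4 (log2 difference -2.18, limma adjusted p = 1.8e-13), and 804 and 891 in OE control against 7862 and 7256 in OE Zscan4 (3.16, limma adjusted p = 6.8e-46). Its promoter repeat MT2_Mm differed by -1.74 and 2.45. Among repeat names, 8.87% passed in the knockdown and 3.84% in the overexpression. Between the KD groups the median log2 difference over all repeat names was shifted to 0.26, while between the OE groups it stood at -0.01. After TMM scaling, MERVL-int differed by -2.43 for KD Zscan4 (limma adjusted p = 2.6e-08) and by 3.18 for OE Zscan4 (limma adjusted p = 6.1e-19). The size of these p-values thus depended on the scaling, while the direction did not. In each arm MERVL thus moved in the direction of Zscan4, as Pramef25 did in sign, while P4ha2 and Ddit4l were lower in both arms and Obox6 was lower where MERVL rose.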

How the data were processed

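Messenger RNA libraries were grouped by their titles, 2 per group. Per the submitters' processing notes, the authors used cutadapt, HISAT2, featureCounts and DESeq2 with mm10, without stated versions. The authors deposited signal values, reads divided by a size factor, in a gene and a repeat table per arm. Multiplied back, 100% of gene values were within 0.01 of whole reads, 17392177 to 22381633 per library, and edgeR 4.0.16 on these reads called 6483 knockdown and 8185 overexpression genes. The main test was limma 3.58.1 (limma-trend, R 4.3.3) on log2(value + 1) over all genes of a table, two-sided, 2 against 2 libraries, Benjamini-Hochberg at 0.05, which called 6403 and 8111, and it was tested on simulated data. No filter on low values was added, and counting intervals cover counting error only. Symbols and coordinates came from GENCODE M21, and Trim43 sequences were aligned with MAFFT 7.526. Joint CPM used edgeR's TMM factors over all 8 libraries. The members and lists were chosen with earlier results of these data known. Named genes were the members, Zscan4 and MERVL entries, up to 4 passing genes with the largest differences per list and arm, and the 2 nearest measured protein-coding genes on each side. The 3 genes most like each member, relatives by symbol left out, were named too. P4ha1 and P4hb, Gm2035, Zfp352, Tdpoz3, Gata6, Klf4, Dcn, Lum, Kdm3a, Sesn2, Tbc1d7, Nprl3, the transcript-sharing genes and those beside a count of 5 or fewer were named after their values were seen. Alternatives were other scalings, pseudocounts, filters, tests and left-out libraries.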

Additional observations from a re-analysis of the deposited data

How the results depend on the processing

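The number of genes called in the knockdown was 6403 and fell to 4141 with DESeq2, which also called 1899 rises in place of 3082. The number in the overexpression was 8111 and 5661 with DESeq2, with 2675 falls in place of 4039. Leaving out 1 library gave 4416 to 6087 calls in the knockdown and 5964 to 7975 in the overexpression, and without KD control replicate 2 the knockdown falls were 2179 in place of 3321. Falling 2-cell genes numbered 27 to 32 over the alternatives in the knockdown and rising ones 30 to 36 in the overexpression. With the replicate number as a replicate block, calls were 6924 and 8188 and the 2-cell counts 32 and 36. Same-numbered libraries did not deviate together (correlation -0.06 and -0.04 over genes), so the numbers are not taken as a pairing. Without genes of chromosomes 1, 11 and Y, calls were 5142 and 6742. Over the alternatives the members' log2 differences, given as description since the same contrasts chose them, ranged from -0.68 to -0.49 for P4ha2 and -1.60 to -1.24 for Ddit4l in the knockdown, and from -1.30 to -1.05 and -0.73 to -0.61 in the overexpression. Obox6 ranged from -2.11 to -1.09, Pramef25 from -1.62 to -0.26 and from 2.34 to 3.36, Trim43a from -1.07 to -0.36 and from 0.71 to 1.58, Trim43b from -0.49 to -0.19 and Trim43c from -0.18 to 1.49. A fit of all 8 libraries gives no value for members of 1 table, and a mean of at least 10 left out Trim43b, Trim43c and, in the knockdown, Trim43a. The Trim43 genes had 10 to 44 reads per group, so small differences in them could go undetected.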
